A study of Rattus norvegicus with 8 samples.

Results

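The enzymes of the glycerol-phosphate and malate-aspartate shuttles are described here across the orbital and global layers of extraocular muscle, which turns the eye, of the adult rat. The 6 genes are Gpd1 and Gpd2 of the first shuttle and Mdh1, Mdh2, Got1 and Got2 of the second, of 10411 genes that the array names by 1 symbol. Every probe set annotated to exactly 1 of them was taken, which gave 10 of 15866 probe sets. The set was selected on earlier orbital against global values of these same arrays, among them a large difference of Gpd1. The layer differences of the members, and their calls in the fit over all probe sets, are therefore a description. They are no test of the members and support nothing. Tissue was cut by laser from the orbital layer, which faces the bony orbit, in 4 captures, and from the global layer, next to the globe, in 4 captures. RNA of each capture was amplified by a T7-based method and read on 1 Affymetrix RAE230A array. The titles of orbital captures 3 and 4 differ only by a suffix, so these may be 2 arrays of 1 capture, and the orbital n may be 3 where 4 is given. With their values averaged, 610 probe sets passed instead of 705, and the same 3 member probe sets were among them. The labels give adult rats with no strain, age in weeks, treatment or allele, and no animal is named, so it is unknown whether captures share an animal and any p-value over captures may be too small. A capture holds every cell type of its layer, and fewer cells of a type and less transcript per cell cannot be told apart.

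NADH made by glycolysis in the cytosol cannot cross the inner mitochondrial membrane, and the shuttles carry its electrons across in other molecules. In the glycerol-phosphate shuttle, cytosolic Gpd1 uses NADH to turn dihydroxyacetone phosphate into glycerol 3-phosphate, and Gpd2, a flavoprotein on the outer face of the inner membrane, oxidises it again and passes the electrons to ubiquinone. In the malate-aspartate shuttle, Mdh1 makes malate in the cytosol, Mdh2 oxidises it in the matrix to form NADH that feeds complex I, and the aminotransferases Got1 (cytosol) and Got2 (matrix) return the carbon as aspartate. The glycerol-phosphate shuttle is known for high activity in fast glycolytic muscle fibres, and the malate-aspartate shuttle for its role in heart and other oxidative muscle.

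Fibre genes were present in both layers: all 8 skeletal muscle markers were tested, and 0 of them were under the highest bacterial control probe set on all arrays. They were not equal between layers: titin (Ttn, -0.70) and the calcium release channel Ryr1 (-0.77) were lower in the orbital layer and myoglobin (Mb, 0.82) was higher (log2 differences; adjusted p = 0.00980, 0.0229 and 0.00290, limma). The median of the 8 was -0.40, and their summed intensity was 33454 to 49078 in the orbital and 36967 to 50584 in the global captures. Their part in the shuttle results was not tested. The median intensity of the arrays was between 58.8 and 66.3. Gapdh control signal at the 3′ end, divided by that at the 5′ end, was 5.35 to 6.47 in the global captures, 6.33 and 5.81 in orbital captures 1 and 2, and 12.9 and 8.64 in orbital captures 3 and 4. Its part in the results was not tested.

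The promoters of 2 members with layer differences of opposite sign are shown. RefSeq promoters on GRCr8, 250 bases before to 50 after the start site, were found for 5 of the 6 members, all but Gpd1. Those of Gpd2, lower in the orbital layer, and of Mdh1, higher there, are printed 5′ to 3′, with matches to any of 7 motifs in capitals. That of Gpd2 lies at chr3:62211403-62211702 on the + strand and that of Mdh1 at chr14:99847178-99847477 on the - strand. The windows of Gpd2 and Got1 lie inside the span of their RefSeq genes, so they belong to start sites within the gene. The gene of Gpd2 begins at 62209432.
Gpd2: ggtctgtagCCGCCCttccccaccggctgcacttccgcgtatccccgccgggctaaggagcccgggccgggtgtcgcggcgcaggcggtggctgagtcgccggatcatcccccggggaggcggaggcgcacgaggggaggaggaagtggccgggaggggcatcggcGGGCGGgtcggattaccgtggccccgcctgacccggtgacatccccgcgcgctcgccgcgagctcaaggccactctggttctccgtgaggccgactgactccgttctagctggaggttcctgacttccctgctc
Mdh1: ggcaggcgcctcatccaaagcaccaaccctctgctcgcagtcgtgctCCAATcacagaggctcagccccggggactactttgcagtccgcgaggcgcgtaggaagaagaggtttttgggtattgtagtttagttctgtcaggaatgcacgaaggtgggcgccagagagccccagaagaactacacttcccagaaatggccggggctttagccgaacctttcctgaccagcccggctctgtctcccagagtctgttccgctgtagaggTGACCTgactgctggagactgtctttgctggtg
The motifs were searched on both strands: CAGCTG (a myogenic E-box), AGGTCA (a nuclear receptor half-site), TGACGTCA (a cAMP response element), GCGCATGC (the core of an NRF1 site), GGGCGG (a GC box), CCAAT and TATAAA. The promoter of Gpd2 was 72% G and C and held 2 GC boxes, a motif found in 33.1% of 33469 promoters of this length. That of Mdh1 was 57.7% G and C and held 1 CCAAT box and 1 nuclear receptor half-site, found in 37.5% and 16.2% of promoters. Among the other members, Got1 held 6 CCAAT boxes and 2 GC boxes. Mdh2 held 1 cAMP response element (1.83% of promoters) and 1 GC box, and Got2 held 1 myogenic E-box (15.1%). The NRF1 core (2.47%) and TATAAA (14.2%) had 0 matches in these 5. A match describes letters only, and no match says only that they are not in this window.

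Of the 10 member probe sets, 8 passed the filter on low values, and each of the 6 genes kept at least 1 of them. Both enzymes of the glycerol-phosphate shuttle had lower levels in the orbital layer, while the 5 tested probe sets of the malate-aspartate shuttle had log2 differences of orbital over global between 0.09 and 0.77. Of the 8, 3 passed limma's test with Benjamini-Hochberg adjustment, 2 lower and 1 higher in the orbital layer. Over all 9520 probe sets tested 7.41% passed, 3.5% lower and 3.91% higher in the orbital layer. The layers did not overlap for 5 of the 8, with 3 lower in the orbital layer (6.75% of all tested) and 2 higher (7.31% of all tested). The contrast was used in choosing the members, so nothing is read from these counts. The median log2 difference over all probe sets tested was 0.02.

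Gpd1, the cytosolic enzyme that consumes NADH, was measured by a bright probe set (1371363_at) at 290 in orbital capture 1, 356 in 2, 371 in 3 and 342 in 4. In the global layer the same probe set read 1909, 1234, 1945 and 1342 in captures 1 to 4. The highest orbital capture lay far below the lowest global one. The orbital mean was 340 ± 35.5 (SD, n = 4) and the global mean 1608 ± 372, which is -2.22 ± 0.16 (SE) as a log2 difference, or 4.64-fold lower in the orbital layer on the log2(intensity + 1) scale. Ordered from the lowest difference, Gpd1 had rank 14 of the 9520 probe sets tested. The orbital captures were tight, with a coefficient of variation of 10.4% against 23.1% in the global layer. A second probe set of Gpd1 (1369560_at) read 0.8 to 4.2 in the 8 captures, under the highest bacterial control on each array, and gives no measure of the layers.

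Gpd2, the mitochondrial partner that hands the electrons to ubiquinone, read 56.2, 80.1, 77.6 and 125 in orbital captures 1 to 4 at its brighter probe set (1369666_at). The global captures read 391.9, 280, 502 and 321. The layers were again far apart, and orbital capture 4 was the highest of its layer. The orbital mean was 84.8 ± 29.0 (SD, n = 4) and the global mean 374 ± 97.2 (log2 difference -2.15 ± 0.24, SE), 4.44-fold lower in the orbital layer. Of the probe sets tested, 0.179% had a lower difference. The dimmer probe set (1387670_at) read 25.5, 77.8, 58.7 and 56.4 in the orbital and 86.9, 95.7, 149 and 93.2 in the global captures. Its layers did not overlap either, but orbital capture 2 at 77.8 lay close to global capture 1 at 86.9. Its difference was -1.02 ± 0.31 and did not pass over all probe sets. The 2 probe sets of Gpd2 thus gave the same direction with different sizes, 4.44-fold and 2.02-fold. All 8 values of each were above the highest bacterial control of their array. For the dimmer one, orbital capture 1 at 25.5 was only just above its control at 23.4, and without that capture the difference was -0.70.

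**Figure D1:**
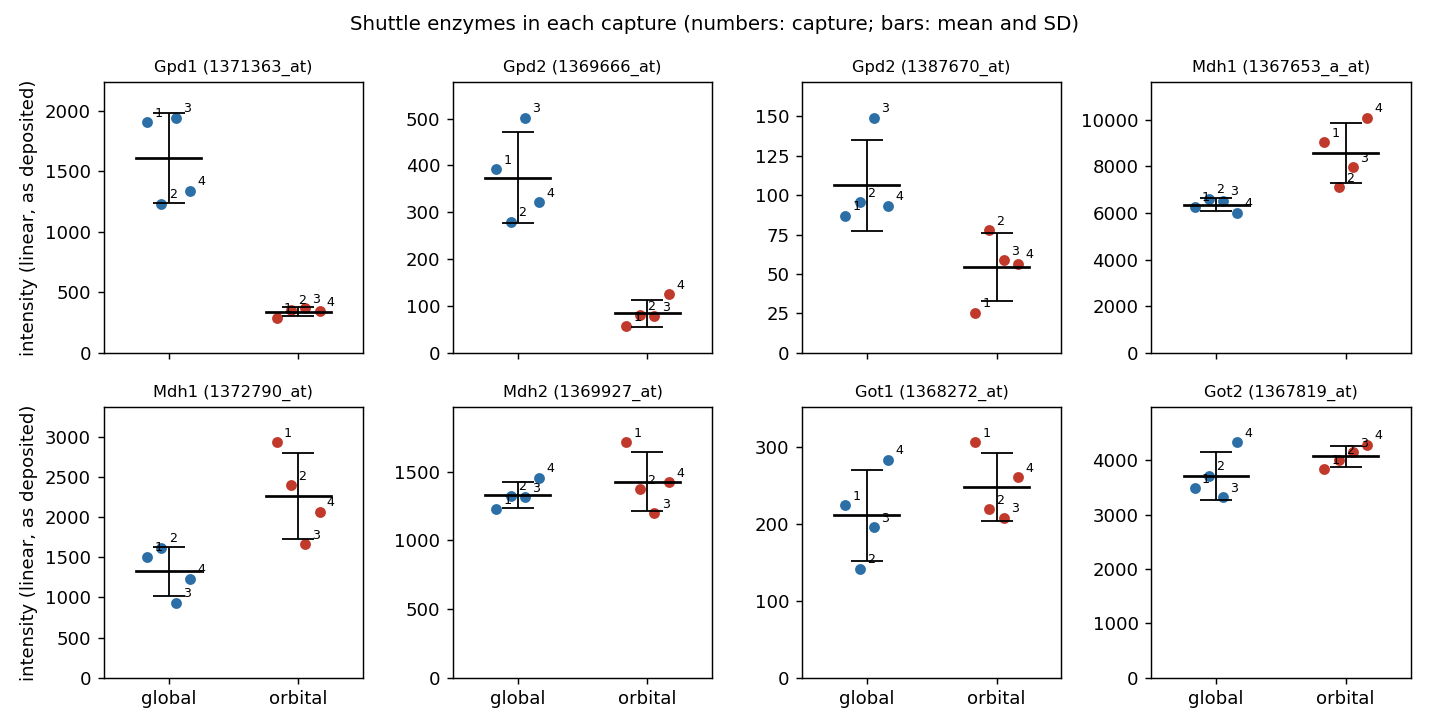
Intensity on a linear scale (vertical axes, starting at 0) of the 8 member probe sets that passed the filter, with 1 point for each capture, its number beside it, and the mean and SD of 4 captures per layer in black. Gpd1 and both probe sets of Gpd2 lie lower in the orbital captures, both probe sets of Mdh1 lie higher there, and the layers overlap for Mdh2, Got1 and Got2.

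Mdh1, the cytosolic malate dehydrogenase that uses NADH on the other route, was higher in the orbital layer at both probe sets. The brighter (1367653_a_at) read 9052, 7120, 7978 and 10096 in orbital captures 1 to 4 and 6273, 6609, 6537 and 6008 in global captures 1 to 4. No global capture reached the lowest orbital one, capture 2, and the global captures were alike within a coefficient of variation of 4.31%. The means were 8561 ± 1293 (SD, n = 4) and 6356 ± 274, a log2 difference of 0.42 ± 0.14 (SE), or 1.34-fold higher in the orbital layer, which did not pass over all probe sets. The second probe set (1372790_at) read 2932, 2400, 1661 and 2069 in the orbital and 1510, 1618, 936 and 1235 in the global captures. Orbital capture 3 at 1661 was just above global capture 2 at 1618. The means of 2265 ± 537 and 1325 ± 305 differed by 0.77 ± 0.20, or 1.71-fold. This probe set was among the 3 that passed. It no longer passed when orbital capture 1 or 2 was left out, or global capture 3 or 4. It also did not pass without the filter, without the intensity trend, or in the captures titled R2 or R3 alone.

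Mdh2, which oxidises malate in the matrix, read 1713, 1374, 1196 and 1425 in orbital captures 1 to 4 and 1228, 1326, 1314 and 1457 in the global ones. The layers overlapped throughout, with the highest and the lowest of the 8 values both orbital. Its log2 difference was 0.09 ± 0.13 (SE), from means of 1427 ± 214 (SD, n = 4) and 1331 ± 94.6. Captures titled R2 gave 0.27 and those titled R3 gave -0.08.

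The aminotransferases lay within the spread of the captures. Got1, the cytosolic form, read 306, 220, 208 and 261 in the orbital and 225, 142, 196 and 284 in the global captures, numbered 1 to 4 in each. Global capture 2 was the lowest and orbital capture 1 the highest, with the others mixed. The difference was 0.26 ± 0.20 (SE), from means of 249 ± 44.5 (SD, n = 4) and 212 ± 59.0. Got2, the mitochondrial form, read 3835, 4012, 4149 and 4282 in the orbital and 3480, 3714, 3324 and 4327 in the global captures. Global capture 4 was the highest of all 8, and the other 3 global captures were the lowest. The difference was 0.14 ± 0.13. A dim second probe set of Got2 (1389871_at) read 16.3 to 38.9 in the orbital and 10.3 to 37.0 in the global captures and was left out by the filter. It was under the highest bacterial control in 1 orbital and 3 global captures.

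**Figure D2:**
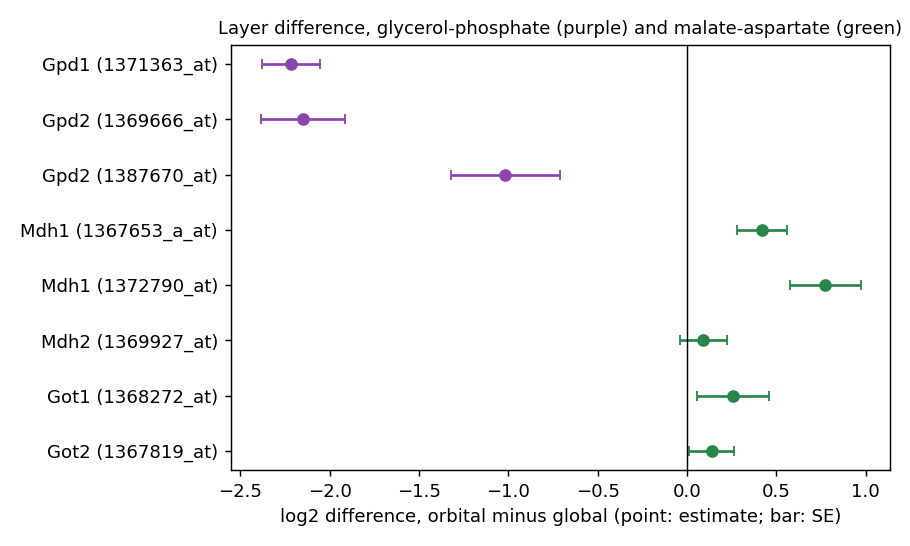
Log2 difference of orbital minus global (horizontal axis) with its standard error for each of the 8 member probe sets, glycerol-phosphate enzymes in purple and malate-aspartate enzymes in green, n = 4 captures per layer. The purple points lie at -2.22, -2.15 and -1.02, and the green points between 0.09 and 0.77.

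Differences between members within an array do not move with the scaling of that array, so they contrast the shuttles directly. For each capture the mean log2 value of Mdh1, Mdh2, Got1 and Got2 was subtracted from that of Gpd1, each gene by its brightest probe set. For Gpd1 this difference was -2.83, -2.26, -2.19 and -2.55 in orbital captures 1 to 4 and 0.28, -0.25, 0.34 and -0.43 in global captures 1 to 4. The lowest global capture was 1.76 log2 units above the highest orbital one. The layer means were -2.46 ± 0.29 (SD, n = 4) and -0.02 ± 0.38, so Gpd1 relative to the malate-aspartate enzymes was 5.43-fold lower in the orbital layer (log2 -2.44 ± 0.24, SE). For Gpd2 the means were -4.50 ± 0.49 and -2.12 ± 0.40, which is 5.20-fold lower (log2 -2.38 ± 0.32), with 1.498 log2 units between the nearest captures. By its dimmer probe set Gpd2 was 2.37-fold lower on this measure (log2 -1.24 ± 0.45), with 0.18 log2 units between the nearest captures. Values of different probe sets are on different scales, so only the change of such a difference between layers has a meaning, not its level.

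Within the glycerol-phosphate shuttle the contrast depended on the probe set of Gpd2. With the brighter one Gpd1 minus Gpd2 averaged 2.04 ± 0.41 (SD, n = 4) over the orbital and 2.11 ± 0.14 over the global captures, a change of -0.06 ± 0.22 (SE). Orbital capture 4, where the brighter Gpd2 probe set was highest of its layer, stood low at 1.44, and without it the change was 0.14. With the dimmer one, an alternative added after the values were seen, Gpd1 minus Gpd2 was 2.71 ± 0.53 and 3.91 ± 0.36, a change of -1.20 ± 0.32 with no overlap of the layers. Mdh1 minus Mdh2 averaged 2.58 ± 0.23 over the orbital and 2.26 ± 0.14 over the global captures, a change of 0.33 ± 0.14 with only 0.02 log2 units between the nearest captures. That change was 0.05 in the captures titled R2 and 0.60 in those titled R3. Got1 minus Got2 changed by 0.12 ± 0.23, and its layers overlapped.

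Among captures of 1 layer, Gpd1 and the brighter Gpd2 probe set had the same order in the global layer but not in the orbital layer. In the global layer Gpd1 and the brighter Gpd2 probe set read highest in capture 3, then in 1, 4 and 2, while the dimmer Gpd2 probe set, also highest in capture 3, followed with 2, 4 and 1. The order of Gpd1 was shared by 4 of the 9 fast fibre markers on the array (Pvalb, Mybpc2, Myh4 and Casq1). All 9 were highest in global capture 3 and lowest in global capture 2. This was not particular to fast fibre markers. The general muscle markers Acta1, Ckm, Ttn, Neb and Ryr1 were also highest in global capture 3 and lowest in 2, and Neb had the full order of Gpd1. Des and Myh13 were highest in global capture 4, and Mb in global capture 2. Pvalb, the calcium buffer parvalbumin, read 1264, 1207, 977 and 897 in captures 3, 1, 4 and 2. In the orbital layer Gpd1 and both Gpd2 probe sets were lowest in capture 1, as were 4 of the 9 markers. The other orbital captures came in different orders. From the highest these were 3, 2 and 4 for Gpd1, 4, 2 and 3 for the brighter Gpd2 probe set and 2, 3 and 4 for the dimmer. These orders were looked at after the values were seen. Over the 8 captures the log2 values of Gpd1 and of the brighter Gpd2 probe set had a Pearson r of 0.97, which holds the layer difference itself, and their deviations from the layer means an r of 0.69. With the dimmer Gpd2 probe set these were 0.80 and 0.53. The deviations of Gpd1 had an r of -0.16 and -0.57 with those of the Mdh1 probe sets, and these had an r of 0.06 with each other. The captures share layer, array scaling and amplification, and these values are descriptions over 8 captures.

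Among named probe sets of other genes, those most like Gpd1 over the 8 captures by Pearson r of log2 values were Sar1b (0.997), Nudt4 (0.99), Aqp4 (0.99), Cd55 (0.99) and Sox6 (0.98). Those most like the brighter Gpd2 probe set were Aqp4 (0.99), Nudt4 at another probe set (0.99), Pgm1 (0.99), Cited2 (0.98) and Eml1 (0.98). Aqp4, a water channel of the fibre membrane, and Nudt4 stand in both. By deviations from the layer means, Aqp4 was again the most like Gpd2 (r = 0.98), followed by Tsr3, Pmm2, Cflar and Erlin2 (0.97 to 0.94). For Gpd1 these were Ppp1r7, Ehbp1l1, Rnps1, Lsm14a and Nop58 (0.96 to 0.94), with no gene shared with the list of Gpd2.

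Of 9 fast fibre markers tested, 5 were lower in the orbital layer (Actn3, Pvalb, Mybpc2, Atp2a1 and Casq1) and 0 higher. Over all genes 3.59% were lower and 4.09% higher. Myh4, Tnni2, Tnnt3 and Tnnc2 had log2 differences from -1.12 to -0.13 and did not pass. The 9 markers had a median log2 difference of -0.82. Their summed intensity was 33682 to 49932 in the orbital and 57844 to 98893 in the global captures. Gpd1 is also abundant in fat cells. Of 10 adipocyte markers on the array, 4 were tested, and Plin4 was lower (-1.18 ± 0.33 SE, adjusted p = 0.0459, limma) and Cidea higher (1.28 ± 0.21, adjusted p = 0.00249) in the orbital layer. The summed adipocyte markers were 963 to 1559 in the orbital and 1138 to 1667 in the global captures, and leptin (Lep) was under the highest bacterial control on all 8 arrays. The part of fibre makeup and of fat cells in the shuttle results was not tested. Photoreceptor markers had a summed level of 378 to 1592 in the orbital and 33.7 to 902 in the global captures, and 0 of the 3 on the array passed. Of the other markers tested, 0 of 6 fibroblast and 0 of 5 blood and macrophage genes passed. Eng (endothelium) and Nefm (nerve) were higher and Myh11 (smooth muscle) was lower in the orbital layer, each 1 gene of its list.

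The enzymes and carriers next to the shuttles were taken in 6 lists, of which 79 genes were tested, each by its brightest probe set. Of these 5 passed, 4 lower and 1 higher in the orbital layer. Over all 7163 genes, 3.59% were lower and 4.09% higher. None of the 79 (0) had a difference as low as that of the brighter Gpd2 probe set (-2.15), and the lowest was that of Pck1 (-1.25 ± 0.40 SE, adjusted p = 0.0810), an enzyme that draws on oxaloacetate, which did not pass. The dimmer Gpd2 probe set, at -1.02, lay above Pck1. A second probe set of glutamine synthetase (Glul), not counted here, lay below Pck1 at -1.32. Members and lists were chosen with this contrast known, so the place of Gpd1 and Gpd2 below these genes supports nothing. The median over all genes was 0.02.

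The carriers of the malate-aspartate shuttle did not pass. Of 10 mitochondrial anion carriers, 6 were tested, with 0 called in either direction and a median log2 difference of 0.21. Slc25a11, which exchanges malate for 2-oxoglutarate, read 1511 ± 189 (SD, n = 4) in orbital and 1229 ± 141 in global captures (0.30 ± 0.13 SE, adjusted p = 0.214). Slc25a22, a glutamate carrier, differed by 0.31 ± 0.25 (adjusted p = 0.528). Slc25a12, the aspartate-glutamate carrier of muscle, was named after its value was seen, and read 1207 ± 116 in orbital and 1238 ± 115 in global captures (-0.04 ± 0.12). Its homologue Slc25a13, also named afterwards, was below the filter at 18.2 to 41.3 in the orbital and 22.0 to 46.8 in the global captures.

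On the lactate branch, which also returns cytosolic NADH to NAD, the members went both ways. Of 6 genes on the array 4 were tested, 1 was higher and 1 lower, with a median of -0.31. Ldhb, the heart-type subunit of lactate dehydrogenase, read 6251, 5459, 6303 and 6971 in orbital captures 1 to 4 and 3081, 4016, 2814 and 3402 in the global ones. Every orbital capture was above every global one, and the difference was 0.92 ± 0.14 (SE, adjusted p = 0.00177, limma). Slc16a3, a lactate exporter of glycolytic cells, read 114, 124, 87.7 and 183 in the orbital and 281, 197, 242 and 264 in the global captures. Orbital capture 4 came close to global capture 2, and the difference was -0.98 ± 0.21 (adjusted p = 0.0104). Ldha, the muscle-type subunit, differed by -0.64 ± 0.18 (adjusted p = 0.0508), just short of the threshold, and passed under several alternatives, among them the title prefix as a fixed block.

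Of 10 genes on the array listed around glycerol 3-phosphate and dihydroxyacetone phosphate, 7 were tested, 1 was lower and 0 higher, with a median of -0.09. Not every gene in the list makes or uses these 2 molecules. It includes acyltransferases (symbols that start with Agpat) whose substrate is already acylated, and 1 of these sits at the median. The 1 lower gene was Tpi1, triose phosphate isomerase, which interconverts dihydroxyacetone phosphate and glyceraldehyde 3-phosphate. It read 2207, 1582, 2029 and 1918 in the orbital and 3962, 3229, 4318 and 3506 in the global captures. The layers were far apart, with a difference of -0.96 ± 0.14 (SE, adjusted p = 0.00121). Glycerol kinase (Gk) and the acyltransferase Gpam, another maker and a user of glycerol 3-phosphate, were below the filter. Gpd1l, a homologue of Gpd1, was listed too but had no probe set under its symbol alone, so it was not measured here.

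Of 14 other enzymes of malate, oxaloacetate, aspartate and glutamate on the array, 12 were tested, 2 were lower and 0 higher, with a median of -0.29. Adss1, the muscle enzyme that condenses aspartate with IMP, read 2277 ± 300 (SD, n = 4) in orbital and 4406 ± 958 in global captures (-0.94 ± 0.16 SE, adjusted p = 0.00290). Me1, cytosolic malic enzyme, read 397 ± 24.8 and 622 ± 73.2 (-0.64 ± 0.12, adjusted p = 0.00665), while its other probe set, at -0.43, did not pass. The layers of Adss1 and Me1 did not overlap. For glutamine synthetase (Glul) 2 probe sets gave the same direction, but only 1 passed. The brighter one differed by -0.82 ± 0.27 (adjusted p = 0.0887) and the other by -1.32 ± 0.23 (adjusted p = 0.00339).

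The steps that take up the electrons in the mitochondrion did not pass. Of 10 other genes whose enzymes feed ubiquinone, as Gpd2 does, 0 were called, with a median of -0.02 and a range from -0.18 to 0.33. Prodh, proline dehydrogenase, differed by 0.33 ± 0.34 (SE, adjusted p = 0.642) and Sdhc, a succinate dehydrogenase subunit, by 0.31 ± 0.13 (adjusted p = 0.175). Complex I takes the NADH that the malate-aspartate shuttle delivers. Of 40 tested genes listed for it, 0 were called, 21 were above and 19 below 0, and the median was 0.01. This list was taken by symbol. It includes assembly factors (symbols that start with Ndufaf), so not every gene in it codes for a subunit of the complex. The most distant were Ndufs4 (0.36 ± 0.24, adjusted p = 0.423) and Ndufb7 (0.36 ± 0.13, adjusted p = 0.135). A p that misses the threshold does not show equal levels.

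**Figure D3:**
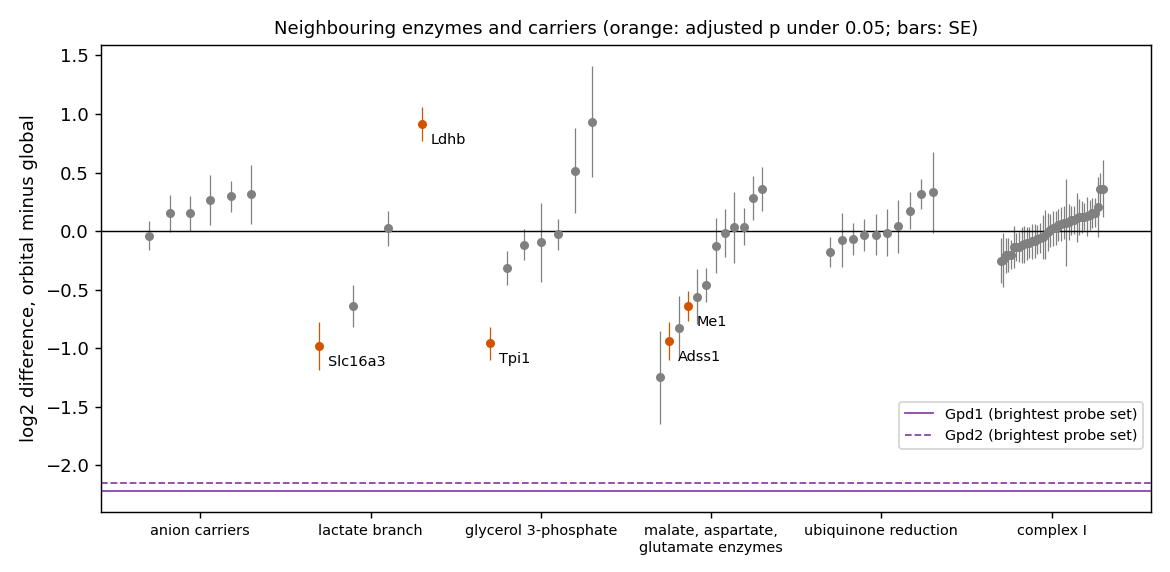
Log2 difference of orbital minus global (vertical axis) with its SE for 79 tested genes in 6 lists, n = 4 captures per layer, with those that passed in orange and named. Purple lines mark the brightest probe sets of Gpd1 (-2.22) and Gpd2 (-2.15), which lie below every listed gene taken by its brightest probe set. Of these listed genes Pck1 (-1.25) is the lowest. Gpd1 and Gpd2 were chosen with this contrast known, so their place supports nothing.

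The titles carry a prefix, R2 or R3, whose meaning the labels do not give, with 2 captures per layer in each. Its relation to the members was not used in choosing them and was tested. The layer difference of Gpd1 was -2.25 in R2 and -2.18 in R3, and that of the brighter Gpd2 probe set -2.29 and -2.02. For the 8 member probe sets the change of the layer difference between prefixes ranged from -0.55 (Got1) to 0.27 (Gpd2), and the smallest unadjusted p was 0.198 (limma interaction term, adjusted p = 0.9999 for each). Over all 9520 probe sets 0 (0%) had an interaction that passed, and 290 had an unadjusted p under 0.05. With layer as a term, the second Mdh1 probe set was lower in R3 than in R2 by a log2 difference of -0.53 ± 0.13 (SE, adjusted p = 0.432, limma), in 1475 against 2115 on average. None (0) of the 8 passed this comparison, and 1 of the 9520 probe sets did (0.0105%).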

How the data were processed

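Per the labels, laser captures gave RNA that was amplified by a T7-based kit for 8 1-colour Affymetrix RAE230A arrays. The deposited values are 1 linear intensity per probe set and array, and which software summarised the probes is not given in the sources used here. The 2% trimmed means differed by 0.00389% between arrays, so scaling by the authors had already been done and the deposited values were taken unchanged.

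Captures were grouped by layer and numbered in accession order. The array holds 15923 probe sets. Without its 57 controls, 9520, at or above the 40th percentile of mean log2 value (an intensity of 39.4), were tested with limma 3.58.1 (R 4.3.3; lmFit, eBayes with trend) on log2(intensity + 1). The model held layer alone, and p-values were adjusted by Benjamini-Hochberg at 0.05. The fit was tested on simulated data. Names come from the platform annotation, which can be old: 12783 probe sets had 1 symbol, 312 several and 2771 none. All 6 member symbols are current in the RefSeq gene table of GRCr8. The bacterial control used as a background mark is the highest of 27 Dap, Lys, Phe, Thr and Trp probe sets.

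Members and lists were chosen with earlier results of these data known. Named were all member probe sets, every listed gene that passed, otherwise the 2 of a list with the largest difference, and the 5 genes most like Gpd1 and Gpd2 by each measure. Pck1, Ldha, Glul, Slc25a12, Slc25a13, Gk, Gpam and Aldoc lie outside this rule and were named after their values were seen. So were single markers. Gpd1l, which had no value, was also named outside the rule. Alternatives were normalization, pseudocount, filter, eBayes options, title prefix as a block or alone, orbital captures 3 and 4 (nearly the same title) averaged, each capture left out and, added after the values were seen, the dimmer Gpd2 probe set in the contrasts.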

Additional observations from a re-analysis of the deposited data

Results flagged for a closer look

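Of 40 sets of 4 captures examined, 4 had 1 capture far from the other 3, a gap that chance alone gives in about 1 of 20 sets. The dim Gpd1 probe set (1369560_at) read 4.2 in orbital capture 2, a value under the background mark. The dimmer Gpd2 probe set (1387670_at) read 149 in global capture 3. Mdh1 minus Mdh2 was 2.04 log2 units in global capture 4, the lowest of its layer. Adss1 read 5826 in global capture 3.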

How the results depend on the processing

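Gpd1 (1371363_at) and the brighter Gpd2 probe set (1369666_at) kept their direction and their call under all 21 alternatives, at -2.33 to -2.03 and -2.36 to -1.55. The lowest size of the latter came with a pseudocount of 64, at which Gpd1 minus Gpd2 changed by -0.48 and Gpd2 minus the malate-aspartate mean by -1.76. With the dimmer Gpd2 probe set, chosen after seeing the data, these were -1.20 and -1.24. The dimmer Gpd2 probe set was between -1.22 and -0.53 and passed under 2 of 20 alternatives. The brighter Mdh1 probe set was between 0.32 and 0.52 and passed under 2 of 21, and the other was between 0.62 and 0.91 and passed under 13 of 21. Mdh2 ranged from -0.08 to 0.27, Got1 from -0.02 to 0.54 and Got2 from 0.09 to 0.26, with 0 calls. The calls of the members are a description, as this contrast was used in choosing them.

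The 705 calls became 106 with prefix R2 alone and 170 with R3 alone, which hold fewer samples, and 461 to 725 with 1 capture left out, fewest without global capture 3. With the prefix as a fixed replicate block there were 745, and as a random one 651. The accession-order numbers pair no captures. Deviations from the layer means correlated at -0.0055 to 0.11 between layers for captures of the same prefix and at -0.13 to 0.045 for others. With R2 alone the lactate, glycerol 3-phosphate and malate lists held 0, 0 and 1 calls, and Mdh1 minus Mdh2 changed by 0.052. With R3 alone the lactate list held 1 and the malate list 0, and that contrast was 0.60. With 1 capture left out, the glycerol 3-phosphate list held 1 to 2 calls, the second being Aldoc without global capture 1. The malate list then held 2 to 3 calls, with Glul added without global capture 2 and Pck1 without global capture 3. The lactate list held 2 to 3, with Ldha added without global capture 2 or orbital capture 1. Tpi1, Ldhb, Slc16a3, Adss1 and Me1 passed with any 1 capture left out. The number of arrays limits the precision.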
